A study of Homo sapiens with 24 samples.

Results

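ABT-869 given on top of SAHA was compared with SAHA alone in MV4-11 cells, using the 3 arrays of the combination and the 3 arrays of SAHA, 6 of the 24 arrays in the series. The arrays were chosen by their titles, and all probe sets other than the Affymetrix controls were tested, 54613 of 54675. MV4-11 is a human acute myeloid leukemia line in which FLT3 is present only as the allele with an internal tandem duplication (FLT3-ITD). ABT-869 is an inhibitor of receptor tyrosine kinases that include FLT3, and SAHA blocks histone deacetylases. Cells of all groups were exposed for 24 hours, to DMSO, to ABT-869 at 3 nM, to SAHA at 6 µM or to both drugs, and the doses within the combination were not restated in the methods. As the SAHA group received SAHA as well, ABT-869 was the only difference that the labels give between the groups. It was set beside ABT-869 against DMSO on the other 6 MV4-11 arrays, and beside the same addition to SAHA in MOLM-14, a line that has a wild-type FLT3 allele next to the FLT3-ITD allele. Each group held 3 cultures labelled as biological replicates of 1 established line, so the p-values measure only the spread between these cultures.

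FLT3-ITD is a receptor that signals without its ligand, mainly through STAT5, the RAS and ERK pathway and the PI3K and AKT pathway, and its output in myeloid leukemia supports survival, division and biosynthesis. STAT5 switches on feedback inhibitors and survival kinases such as CISH, SOCS1 and PIM1, so that their transcripts follow the activity of the kinase. Histone deacetylase inhibitors increase histone acetylation and change the transcription of many genes, among them genes of the cell cycle and of myeloid maturation.

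Signals were the linear values made by the authors, with the same trimmed mean on every array, and values under 32 were set to 32 before log2 was taken. The median signal was 80.4 to 87.8 on the SAHA arrays and 78.5 to 98.7 on the combination arrays, and 26.95% to 31.17% of values lay under 32. The 3' to 5' ratio of GAPDH, which reads out how intact the RNA was, came to 0.957 to 0.981 with SAHA and 0.988 to 0.996 with the combination, so the groups did not overlap, and its part in the results was not tested. The ratio of ACTB reached 1.38 on combination replicate 3, above the 1.13 to 1.19 of the other 5 arrays. Of 8 markers of a myeloid leukemia line, 7 were above 32 on all 6 arrays, whereas the summed signal of 6 T cell markers was at most 405.9, with CD8A under 32 on all 6 arrays. The summed signals were 909.8 to 1192 for 4 B cell markers, 216.9 to 323.4 for 4 erythroid markers and 316.3 to 557.5 for 5 megakaryocyte markers, and none of these 19 markers passed the test in limma, at an unadjusted p under 0.05 either.

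With ABT-869 on top of SAHA, MV4-11 cells had lower transcripts of CISH, SOCS1 and PIM1, of mitosis, of sterol and fatty acid synthesis and of hypoxia-responsive glycolysis, and higher transcripts of ribosome biogenesis. In the limma fit, 1007 probe sets were higher and 1241 lower at an adjusted p under 0.05, that is 1.84% and 2.27% of those tested, and together 2248 or 4.12%. At 2-fold or more, 71 were higher (0.13%) and 268 lower (0.491%). With the arrays centred on their medians the split was 286 higher and 839 lower, so that 74.6% of the calls were lower instead of 55.2%. Taking 1 probe set for each of 17715 genes, 620 genes (3.5%) were higher and 716 (4.04%) lower, and the median difference was 0.01 on the log2 scale. The tallies of gene lists given below are to be read against these shares. Differences are log2 differences, combination minus SAHA, unless another comparison is named. A gene of a list is represented by its brightest probe set. Genes named for the largest changes or differences are represented by the probe set with the largest one. Of 49 genes named here with several probe sets in the fit, all of them were called in 20 genes, some in 25 and none in 4, and no gene had calls in both directions.

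**Figure D1:**
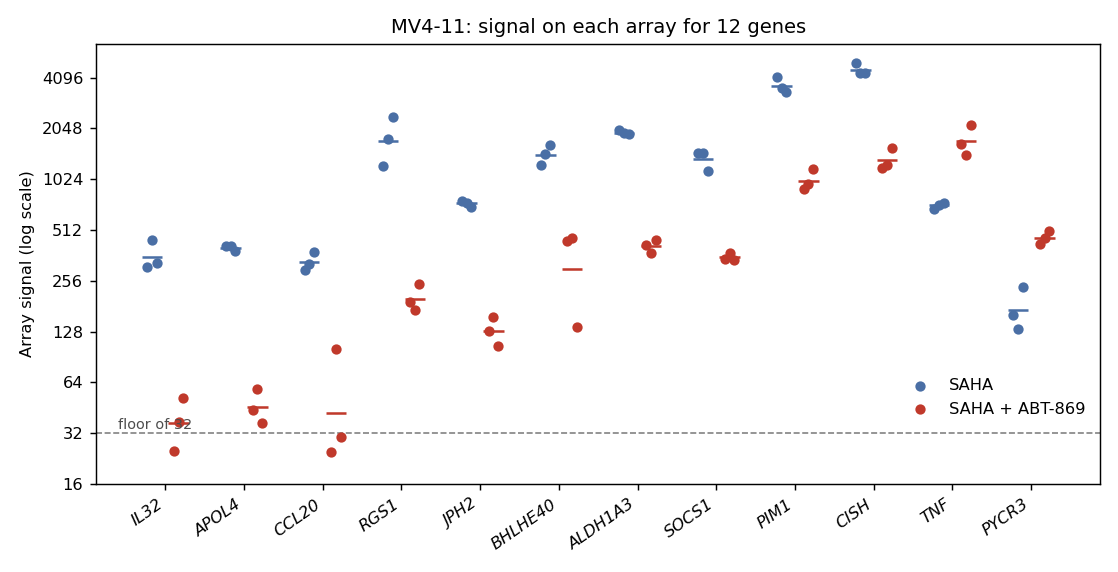
Signals of 12 genes on the 3 SAHA arrays and the 3 combination arrays of MV4-11, on a log axis; points are arrays, bars are geometric means and the dashed line is the floor of 32. The 10 genes on the left were lower with the combination on every array, and TNF and PYCR3 were higher.

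CISH, SOCS1 and PIM1 were lower with the combination. CISH, a STAT5-induced inhibitor of cytokine signalling, had signals of 4972, 4369 and 4384 with SAHA and of 1189, 1247 and 1559 with the combination. Its log2 difference was −1.79 (SE 0.108, adjusted p = 1.06e-06), a 3.45-fold fall. All 3 combination arrays lay far below all 3 SAHA arrays. SOCS1, a feedback inhibitor of JAK kinases, had signals of 1459, 1467 and 1152 with SAHA and of 346, 376 and 341 with the combination. Its difference was −1.93 (SE 0.12, adjusted p = 1.06e-06), and again the groups lay apart. PIM1, a survival kinase induced by STAT5, had signals of 4148, 3544 and 3378 with SAHA and of 893, 955 and 1174 with the combination, and differed by −1.88 (SE 0.112, adjusted p = 1.06e-06). SOCS2, another member of the family named after its values were seen, fell much less, by 0.40 on the log2 scale (adjusted p = 0.00727), and was not called after centring of the arrays or without the variance trend, that is with a prior spread that does not vary with signal. Of 15 STAT5 targets, 4 were lower, none was higher and 11 did not pass the test, and the median over the list was −0.32. On adding ABT-869 to SAHA in MOLM-14, 2 of the 15 were lower and none higher, with a median of −0.17. The test between the lines had 3 of the 15 lower in MV4-11 than in MOLM-14.

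Without SAHA, on arrays outside that contrast, which share its estimate of the spread, ABT-869 differed from DMSO by −1.77 (adjusted p = 5.91e-07) for CISH and by −2.37 (adjusted p = 3.97e-08) for PIM1. For these genes the test of the difference between the settings gave −0.01 (adjusted p = 1) and 0.49 (adjusted p = 0.233). SOCS1 fell by 1.15 on the log2 scale without SAHA (adjusted p = 6.71e-05), and its fall with SAHA was larger, with a difference between the settings of −0.78 (adjusted p = 0.0422) that was not called after centring. ABT-869 against DMSO had 1108 probe sets higher (2.03%) and 1129 lower (2.07%), and the contrast between the settings had 223 higher (0.408%) and 311 lower (0.569%). The receptor itself did not pass the test. FLT3 had signals of 13918, 13442 and 13642 with SAHA and of 12655, 13226 and 12123 with the combination, with a difference of −0.11 (adjusted p = 0.637). Among 8 receptors that ABT-869 targets, FLT1, a receptor of vascular endothelial growth factor, was the only one called. Its signals were 335, 384 and 447 with SAHA and 210.5, 96.4 and 94.8 with the combination, where replicate 1 stayed above the other two, and it differed by −1.63 (SE 0.28, adjusted p = 0.00348).

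Further regulators of signalling were lower. RGS1, which shuts off G protein signalling downstream of chemokine receptors, had signals of 1222, 1782 and 2399.8 with SAHA and of 191, 171 and 245 with the combination. It differed by −3.12 (SE 0.345, adjusted p = 0.000113), 8.67-fold, with the groups wide apart although the SAHA arrays spread among themselves. RGS2, a regulator of the same family, differed by −0.91 (SE 0.13, adjusted p = 0.000928), and 3 of 8 RGS genes were lower. Of 14 ERK feedback genes and ETS factors 3 were lower, led by PHLDA1, a target of ERK, at −1.0 (adjusted p = 0.00283) in 1 of its 6 probe sets. The survival gene BCL2A1, an anti-apoptotic BCL2 relative, had signals of 548, 681 and 788 with SAHA and of 230.5, 242 and 208 with the combination. It fell 2.94-fold with no overlap (−1.55, adjusted p = 9.83e-05), and it was the only one of 5 anti-apoptotic BCL2 genes that passed the test.

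Short stretches of promoter are shown for 6 members that fell and that hold a motif searched for in their list, to display the letters searched for. They are RefSeq sequences of GRCh38.p14 from the window of 250 bases before to 50 bases after the transcription start, printed with 10 bases on each side of the outermost matches where the window allows, 5′ to 3′ on the strand of the gene. Capitals mark the STAT site TTCNNNGAA in CISH, the amino acid response element TGATGNAA in CHAC1, the cell cycle homology region TTTGAA in TOP2A, NDC80 and HMMR, and the CCAAT box in TOP2A, KIF20A and HMMR, each read on either strand and overlapping in places.
CISH, chr3:50611868-50612024, minus strand: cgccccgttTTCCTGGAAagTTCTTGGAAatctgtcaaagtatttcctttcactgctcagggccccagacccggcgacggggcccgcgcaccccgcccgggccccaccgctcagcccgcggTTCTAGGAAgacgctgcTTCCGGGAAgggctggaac
CHAC1, chr15:40953252-40953279, plus strand: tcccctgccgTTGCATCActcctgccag
TOP2A, chr17:40417935-40418146, minus strand: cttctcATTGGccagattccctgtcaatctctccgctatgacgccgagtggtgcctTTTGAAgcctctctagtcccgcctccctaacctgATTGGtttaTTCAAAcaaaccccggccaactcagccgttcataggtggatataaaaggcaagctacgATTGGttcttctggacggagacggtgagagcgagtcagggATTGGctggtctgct
KIF20A, chr5:138179008-138179059, plus strand: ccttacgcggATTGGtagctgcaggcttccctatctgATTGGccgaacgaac
NDC80, chr18:2571544-2571569, plus strand: ggcggagaatTTCAAAttcgaacggc
HMMR, chr5:163460445-163460625, plus strand: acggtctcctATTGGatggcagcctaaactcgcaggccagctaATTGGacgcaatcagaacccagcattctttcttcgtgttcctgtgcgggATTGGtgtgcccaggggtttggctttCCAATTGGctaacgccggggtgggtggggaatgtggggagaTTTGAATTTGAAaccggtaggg

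CISH held 4 matches to the STAT site within these 157 bases. The TTTGAA letters were in 72.4% of the 29 mitotic genes with a promoter sequence and in 11.9% of the 15384 promoters of all genes on the array. CCAAT was in 82.8% of the same mitotic genes and in 36.1% of all promoters. The STAT site was in 18.2% of 11 STAT5 targets and in 6.9% of all promoters. Of the 3 lower STAT5 targets with a promoter sequence, CISH alone held it. The sterol regulatory element TCACNCCAC was in 5.9% of 17 genes of the sterol list and in 1.1% of all promoters. The amino acid response element was in 7.1% of 14 ATF4 genes, CHAC1 alone, and in 2.6% of all promoters. A match of letters is a description of the sequence and not a site of binding.

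Mitotic genes had the highest share of called members among the 40 lists of gene function. Of 34 genes of the spindle, the kinetochore and the mitotic kinases, 33 were lower and none higher, with a median difference of −0.89, beside 4.04% of all genes lower. The geometric mean signal of the list was 1764, 1840 and 1856 on the SAHA arrays and 934.5, 1039 and 1042 on the combination arrays. Fewer cells in mitosis and less of these transcripts per cell cannot be told apart in bulk RNA. The exception was MAD2L1, a spindle checkpoint protein, named after its value was seen, at −0.27 (adjusted p = 0.142). Between 27 and 33 of the genes were called lower under the alternative settings.

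TOP2A, the topoisomerase that untangles chromosomes before they separate, had signals of 6690.5, 6258 and 6824 with SAHA and of 2750.5, 2978 and 2755 with the combination. It differed by −1.22 (SE 0.0971, adjusted p = 6.87e-06), 2.33-fold, and the arrays within each group were close to each other. KIF20A, a kinesin needed for cytokinesis, had signals of 1174, 1424 and 1418 with SAHA and of 526, 543 and 780.1 with the combination. It differed by −1.14 (SE 0.148, adjusted p = 0.000469), and combination replicate 3 was the highest of its group but still below every SAHA array. NDC80, a kinetochore protein that binds microtubules, had signals of 921, 1142 and 1035 with SAHA and of 428, 508 and 483 with the combination. It differed by −1.12 (SE 0.117, adjusted p = 6.24e-05), with the groups apart. The following were named after their values were seen, as examples of other roles. HMMR, a spindle-associated protein, differed by −1.12 (adjusted p = 2.8e-05). Cyclin B1 (CCNB1), the partner of the kinase that starts mitosis, differed by −0.99 (adjusted p = 4.92e-06). The mitotic kinases PLK1 and AURKB differed by −0.95 (adjusted p = 0.000317) and −0.90 (adjusted p = 0.000149). BIRC5 (survivin), a subunit of the complex that corrects chromosome attachment, differed by −0.85 (adjusted p = 0.000345), where 1 of its 4 probe sets passed the test.

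ABT-869 against DMSO left 1 of the 34 genes higher and 2 lower, with a median of −0.05, and 22 of the 34 were lower in the test of the difference between the settings, or 8 after centring. The geometric mean signal of the list was 2531, 2603 and 2538 with DMSO and 2512, 2564 and 2342 with ABT-869, all above the SAHA arrays. TOP2A differed from DMSO by 0.01 (adjusted p = 1) without SAHA, and the settings differed by −1.23 (adjusted p = 0.000516). KIF11, the kinesin that separates the spindle poles, also named after its values were seen, rose by 0.49 (adjusted p = 0.00357) with ABT-869 alone, a call lost after centring, and differed by −0.70 (adjusted p = 0.000219) on top of SAHA. In MOLM-14, 55 probe sets were higher (0.101%) and 196 lower (0.359%) on adding ABT-869 to SAHA, and none of the 34 mitotic genes was among them, with a median of 0.01. At an unadjusted p under 0.05 in limma, 1 of them was higher and 3 lower there. These 251 calls were 94 without MOLM-14 SAHA replicate 2. After centring they were 90 higher and 5486 lower, with 13 mitotic genes lower and a median of −0.30 over the list, as centring moved the median difference of all probe sets in the MOLM-14 fit from 0.07 to −0.18. The contrast between the lines had 238 probe sets with a higher difference in MV4-11 (0.436%) and 326 with a lower one (0.597%). Of the 34 mitotic genes 28 were lower in it, TOP2A by −1.27 (adjusted p = 2.25e-05), and 15 were lower after centring. With quantile normalization 23 mitotic genes were lower between the settings, none in MOLM-14 and 28 between the lines.

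**Figure D2:**
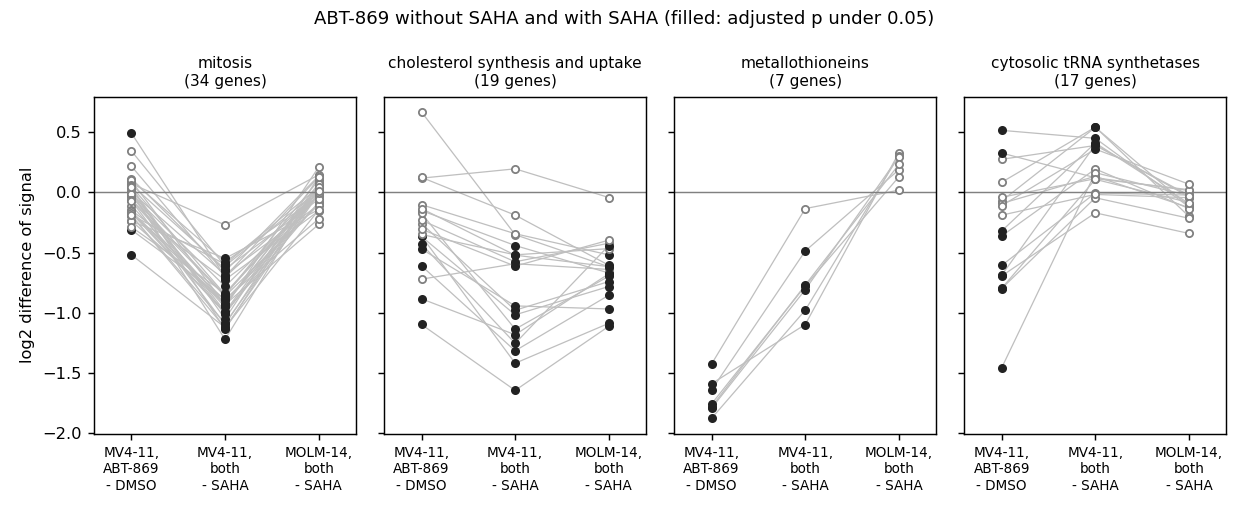
Log2 differences of the genes of 4 lists for ABT-869 against DMSO in MV4-11, for the combination against SAHA in MV4-11 and for the combination against SAHA in MOLM-14; each point is a gene. Mitotic genes lay near 0 without SAHA and in MOLM-14 and had a median of −0.89 with SAHA in MV4-11, whereas the median of the metallothioneins was −1.76, −0.78 and 0.23; after centring of the arrays the MOLM-14 medians were −0.30 and −0.01.

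Most genes of DNA replication did not pass the test. Of 41 genes of origin licensing and the replication fork, 5 were lower and 1 higher, beside 4.04% and 3.5% of all genes. Called or not, 33 lay below 0, with a median of −0.14 over the list. The number called lower was 3 without SAHA replicate 3 and after centring, and 2 without the variance trend. It was 9 without combination replicate 3 and among brighter probe sets only. ORC1, the largest subunit of the origin recognition complex, had signals of 941, 759 and 943 with SAHA and of 503, 483 and 425 with the combination, with no overlap, and differed by −0.90 (SE 0.11, adjusted p = 0.000248). Without SAHA, 13 of the 41 were higher and 2 lower with ABT-869, and the contrast between the settings had 9 lower, of which none was left after centring, where ABT-869 alone had 1 lower and none higher. Nucleotide synthesis genes moved in both directions. PFAS, an enzyme of purine synthesis, had signals of 1572, 1607 and 1765 with SAHA and of 2812, 3148 and 2993 with the combination. It rose by 0.86 (SE 0.0934, adjusted p = 9.64e-05), with every combination array above every SAHA array. CAD and CTPS1, of pyrimidine synthesis, rose by 0.64 (adjusted p = 0.000707) and 0.63 (adjusted p = 0.0145). CTPS1 was not called after centring, without the variance trend, or without SAHA replicate 1 or combination replicate 2. TYMS, which makes thymidylate, and RRM2, a subunit of ribonucleotide reductase, differed by −0.52 (adjusted p = 0.00152) and −0.42 (adjusted p = 0.00647), the latter not called after centring or without the variance trend. In all, 6 of 21 nucleotide synthesis genes were higher and 3 lower, and 2 were higher after centring or without the variance trend.

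Most genes of sterol synthesis were lower. Of 25 genes listed, 19 had a probe set that names the gene alone, and of these 14 were lower and none higher, with a median of −0.61. The geometric mean signal was 2486, 2653 and 2583 on the SAHA arrays and 1400, 1446 and 1660 on the combination arrays. MSMO1, a methyl sterol oxidase, had signals of 5808, 7192 and 7382 with SAHA and of 1946, 2282 and 2274 with the combination. It differed by −1.64 (SE 0.115, adjusted p = 2.13e-06), 3.13-fold, and the groups were far apart. HMGCS1, the enzyme that makes the substrate of HMG-CoA reductase, had signals of 2798, 2652 and 2550.5 with SAHA and of 1008, 854 and 1152 with the combination. It differed by −1.42 (SE 0.127, adjusted p = 1.49e-05), again without overlap. IDI1, an isomerase of the isoprenoid steps, and INSIG1, which holds the sterol sensor in the endoplasmic reticulum and was named after its values were seen, differed by −1.32 (adjusted p = 9.68e-06) and −1.25 (adjusted p = 1.09e-06). In MOLM-14 13 of the 19 genes were lower, with a median of −0.64, and MSMO1 differed there by −1.11 (adjusted p = 0.000857). The contrast between the lines had 2 of the 19 lower, INSIG1 by −0.81 (adjusted p = 0.00037). After centring 19 were lower in MOLM-14 and none was called between the lines.

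Fatty acid synthesis followed, with 6 of 8 genes lower and none higher and a median of −0.87. SREBF1, the transcription factor that drives lipid synthesis, had signals of 3012, 2845 and 3384 with SAHA and of 1219, 1388 and 1607 with the combination, which did not overlap. It differed by −1.14 (SE 0.101, adjusted p = 1.49e-05). SCD, which introduces double bonds into fatty acids, was among the brightest transcripts, with signals of 27449, 27925 and 27167 with SAHA and of 13041, 15970.4 and 13813 with the combination. It differed by −0.95 (SE 0.0938, adjusted p = 3.55e-05), and FASN, the fatty acid synthase named after its values were seen, by −0.83 (adjusted p = 0.000685). Without SAHA, FASN did not pass (0.16, adjusted p = 0.623), and the settings differed by −0.99 (adjusted p = 0.00691), a call lost after centring. Of the sterol genes 6 were lower without SAHA, with a median of −0.31, and 6 were lower in the contrast between the settings, or 2 after centring.

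Glycolysis and hypoxia-responsive genes were lower in 16 of 29 cases and higher in none, with a median of −0.53, and 10 were lower without the variance trend. ENO2, an enolase isoform, had signals of 1340.2, 1822 and 2285 with SAHA and of 553, 420.1 and 586 with the combination. It differed by −1.79 (SE 0.175, adjusted p = 3.44e-05). ALDOC, an aldolase isoform, had signals of 8603, 8806 and 9946 with SAHA and of 2410.0, 2579 and 3402 with the combination, and differed by −1.72 (SE 0.149, adjusted p = 1.24e-05). Both genes separated the groups fully. PFKFB4, which sets the level of the activator of phosphofructokinase, differed by −1.41 (SE 0.132, adjusted p = 2.38e-05). LDHA, lactate dehydrogenase, and PGK1, phosphoglycerate kinase, both named after their values were seen, differed by −0.14 (adjusted p = 0.671) and −0.15 (adjusted p = 0.607), although 2 of 6 probe sets of PGK1 were lower. With ABT-869 alone 9 of the 29 genes were lower and 1 higher, with a median of −0.13. The contrast between the settings had 4 lower, or none after centring. In MOLM-14 9 of the 29 genes were lower, and the contrast between the lines had 3 lower and 1 higher, with ALDOC at −1.16 (adjusted p = 0.00277). After centring these were 20 lower in MOLM-14 and 1 lower and 1 higher between the lines.

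**Figure D3:**
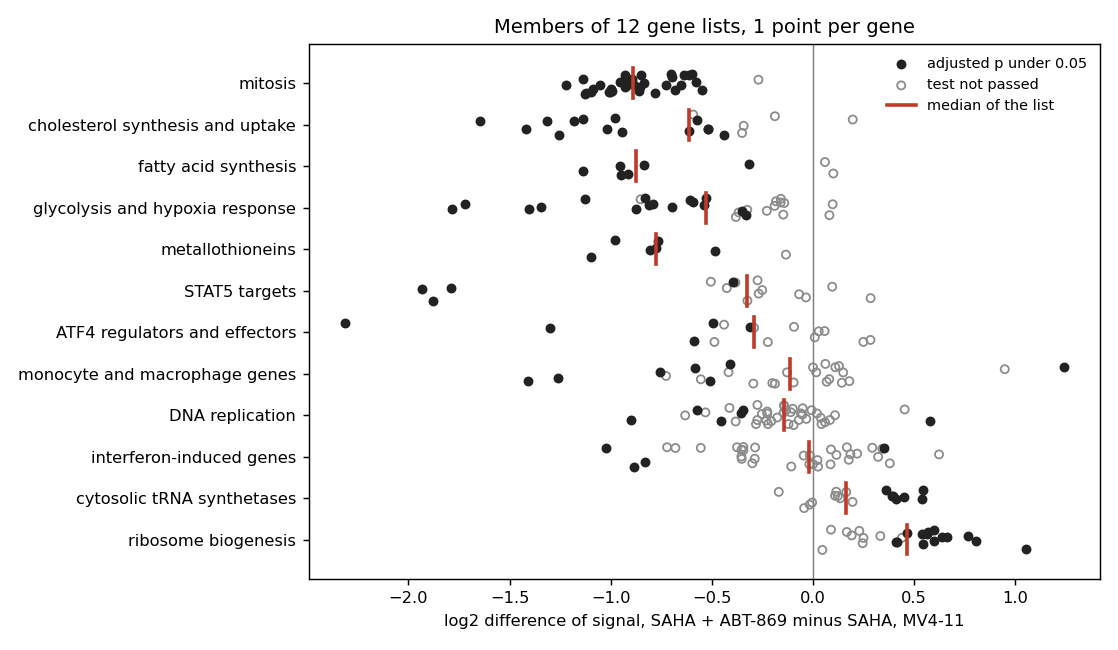
Log2 difference, combination minus SAHA in MV4-11, of each gene of 12 lists; filled points passed the test at an adjusted p under 0.05, open points did not, and the red bar is the median of the list. Mitotic genes lay below 0 throughout, and the medians were −0.61 for sterol genes, −0.78 for metallothioneins and 0.47 for ribosome biogenesis.

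Metallothioneins bind zinc and copper and rise with metals and stress. Of 7 genes 6 were lower and none higher, with a median of −0.78, and the near-identical sequences of the family make the value of each single gene uncertain. MT1X had signals of 6046, 6566 and 9386 with SAHA and of 3609, 3448 and 3919.8 with the combination. It differed by −0.98 (SE 0.144, adjusted p = 0.00118), and SAHA replicate 3 was the highest array of its group. MT1H and MT1E differed by −1.10 (adjusted p = 0.000469) and −0.81 (adjusted p = 0.00253), and 4 of the 7 genes were lower without SAHA replicate 3. On DMSO MT1X had signals of 21413, 20776 and 20328 and with ABT-869 alone of 4634, 6079 and 6488, a difference of −1.88 (adjusted p = 4.67e-06), and the SAHA arrays lay below the DMSO arrays. The contrast between the settings had 4 of the 7 higher. In MOLM-14 none of the 7 passed the test in limma, although 5 were higher at an unadjusted p under 0.05, with a median of 0.23, and the contrast between the lines had 6 of 7 lower, MT1X by −1.28 (adjusted p = 0.00051). After centring the median in MOLM-14 was −0.01, and 4 of 7 were lower between the lines.

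Of 7 histone genes known to rise under deacetylase inhibitors, 2 were called lower and 1 higher. Called or not, 6 lay below 0, with a median of −0.50 over the list. H2AC6 had signals of 3610.5, 4853 and 6099 with SAHA and of 1942, 1824 and 1945 with the combination. It differed by −1.32 (SE 0.152, adjusted p = 0.00016), where the SAHA arrays spread widely but all lay above the combination arrays. Its DMSO signals were 1802, 1692 and 1686. H2BC5, which encodes a histone H2B, differed by −0.96 (adjusted p = 0.000498). In MOLM-14 the signals of H2AC6 were 1511, 2761 and 2332 with SAHA and 3814, 3354 and 3747 with the combination, a difference of 0.77 (adjusted p = 0.286) that did not pass the test. The lines differed by −2.09 (adjusted p = 0.00146). Over the list, all 7 genes lay above 0 in MOLM-14, with a median of 0.64, and 1 was called higher. These list values were not computed after centring.

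Ribosome biogenesis held more rises than any other of the 40 lists. Of 23 genes, of 28 listed, 14 were higher and none lower, with a median of 0.47, beside 3.5% of all genes higher. The geometric mean signal was 2057, 2132 and 2141 on the SAHA arrays and 2715, 2929 and 3082 on the combination arrays. After centring 5 genes were called higher and without the variance trend 4. With ABT-869 alone 6 of the 23 were higher and none lower, with a median of 0.26, and none was higher after centring. The contrast between the settings called none of the 23. RRP12, a factor in the export of ribosomal subunits, had signals of 914, 1139 and 975 with SAHA and of 2276, 2268 and 1750.5 with the combination. It rose by 1.05 (SE 0.141, adjusted p = 0.000574), without overlap, although 1 of its 5 probe sets passed the test. RRP9, a processing factor of ribosomal RNA, and POLR1A, the large subunit of RNA polymerase I, rose by 0.81 (adjusted p = 0.0091) and 0.77 (adjusted p = 0.00604), and neither was called without the variance trend, nor RRP9 after centring. The E-box CACGTG was in 44.4% of 18 promoters of the list and in 8.9% of all promoters. MYC, which binds this box, had signals of 19869, 17588 and 18257 with SAHA and of 22668, 24594 and 21814 with the combination, and its difference was 0.31 (adjusted p = 0.0445). That call was lost on leaving out any array of the line other than ABT-869 replicate 2 or combination replicate 3, and also after centring, without the variance trend, with only the 6 arrays compared or with a replicate block. The part of MYC in the rises of this list was not tested. In MOLM-14 none of the 23 genes passed the test in limma, 5 being higher and 1 lower at an unadjusted p under 0.05, and the contrast between the lines had 6 higher, RRP12 by 1.07 (adjusted p = 0.0148) and none lower. After centring 6 genes were lower in MOLM-14 and 12 higher between the lines.

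The cytosolic tRNA synthetases, which load amino acids onto tRNA, were higher in 7 of 17 cases and lower in none, with a median of 0.16. This number was 4 without SAHA replicate 2, 2 after centring and 1 without the variance trend. VARS1, the enzyme for valine, had signals of 3624, 3521 and 3322 with SAHA and of 4868, 4889 and 5501 with the combination. It rose by 0.54 (SE 0.0819, adjusted p = 0.00141), with the groups apart. FARSB, a subunit of the enzyme for phenylalanine, rose by 0.54 (adjusted p = 0.00286) and was not called without the variance trend. Without SAHA 2 of the 17 genes were higher and 8 lower, and the contrast between the settings had 9 higher, or 4 after centring. WARS1, the enzyme for tryptophan, named after its values were seen, had signals of 2244, 2168 and 2580.1 with SAHA and of 2586, 2495 and 2735 with the combination, and did not pass the test (0.16, adjusted p = 0.386). Its signals were 4022, 4054 and 4217 with DMSO and 1588, 1484 and 1412 with ABT-869, a difference of −1.46 (adjusted p = 2.32e-07). The settings differed by 1.62 (adjusted p = 1.92e-05).

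ATF4 switches on amino acid synthesis and uptake under nutrient and translation stress. The response of its regulators and effectors differed with and without SAHA. Without SAHA, 13 of 15 were lower with ABT-869, with a median of −0.96. On top of SAHA 5 were lower, with a median of −0.29, and the contrast between the settings had 8 higher, or 4 after centring. The 5 became 3 on leaving out any 1 DMSO array, any 1 SAHA array or combination replicate 1, and also under centring, without the variance trend or with all probe sets in the variance fit, and 2 with only the 6 arrays compared. CHAC1, which degrades glutathione, had signals of 164, 176 and 178 with SAHA and of 28.2, 40.9 and 12.1 with the combination. It differed by −2.31 (SE 0.207, adjusted p = 1.52e-05), and 2 of the 3 combination arrays lay under 32. ATF5, a transcription factor of the same family, had signals of 769, 893 and 774 with SAHA and of 325, 283 and 388 with the combination, and differed by −1.30 (SE 0.169, adjusted p = 0.000458).

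Other members of the ATF4 list were named after their values were seen. TRIB3, a pseudokinase induced by ATF4, had signals of 10385, 9692 and 10382 with DMSO, 2387, 2429.8 and 1879.7 with ABT-869, 1745, 1793 and 1808 with SAHA and 1288, 1481 and 1617 with the combination. It differed by −2.19 (adjusted p = 3.97e-08) without SAHA and did not pass on top of it (−0.29, adjusted p = 0.155), with a difference between the settings of 1.90 (adjusted p = 3.43e-05), although its dimmer probe set was lower. ASNS, asparagine synthetase, fell by 1.5 on the log2 scale (adjusted p = 6.86e-07) without SAHA and did not pass with it (0.00, adjusted p = 1). The settings differed for ASNS by 1.49 (adjusted p = 7.51e-05). CEBPB, a partner of ATF4, fell by 1.61 on the log2 scale (adjusted p = 3.97e-08) without SAHA and differed between the settings by 1.86 (adjusted p = 1.93e-06). DDIT3, which encodes CHOP, was lower in both, at −1.61 (adjusted p = 4.67e-06) without SAHA and −0.49 (adjusted p = 0.0361) with it. The call with SAHA was lost under 5 other settings and on leaving out any 1 DMSO array, SAHA replicate 1 or 3, or combination replicate 1 or 2. None of 11 amino acid transporters passed the test in limma on top of SAHA, with 1 higher and 4 lower at an unadjusted p under 0.05, and 6 were lower without it.

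**Figure D4:**
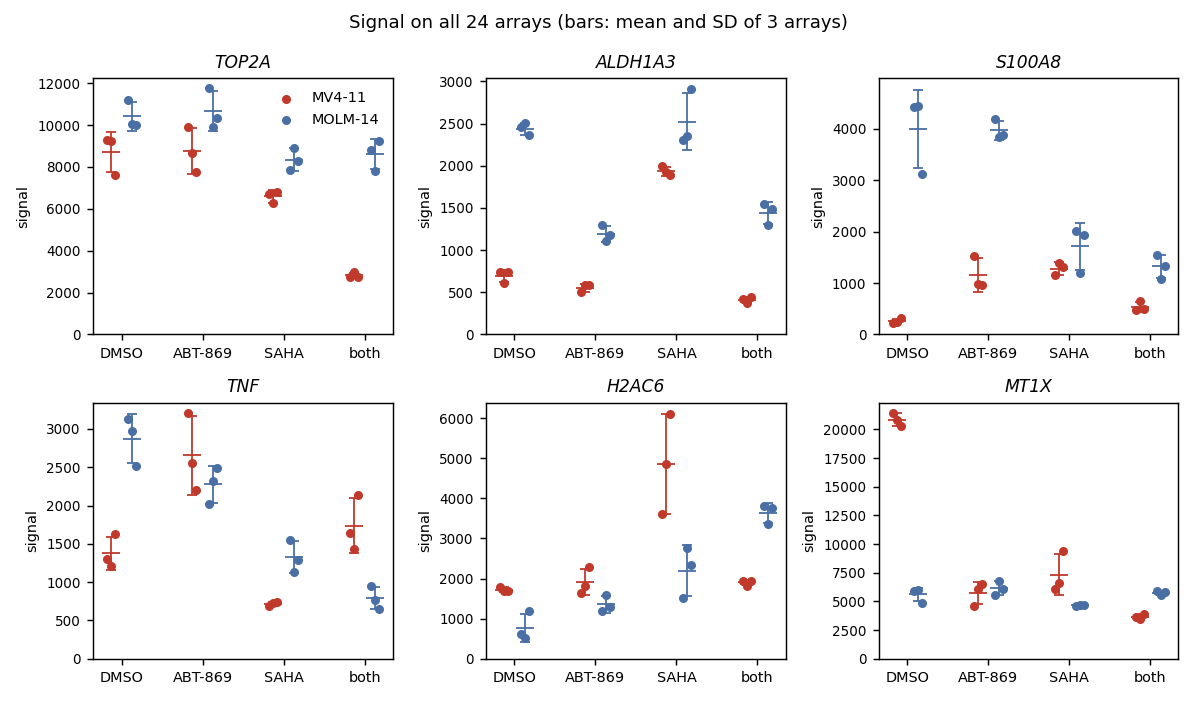
Signals of TOP2A, ALDH1A3, S100A8, TNF, H2AC6 and MT1X in the 8 groups of the series; points are arrays and bars are means ± SD of 3 arrays. With the combination TOP2A, S100A8 and H2AC6 were below SAHA in MV4-11 at the chosen threshold and were not called in MOLM-14, where S100A8 was lower after centring of the arrays, and TNF was higher in MV4-11 and lower in MOLM-14.

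Monocyte and macrophage genes differed with and without SAHA. Of 26 genes 6 were lower and 1 higher on top of SAHA, with a median of −0.11, whereas ABT-869 alone had 10 higher and none lower, with a median of 0.44. The contrast between the settings had 8 lower. The 6 lower genes were 3 without the variance trend and 4 without SAHA replicate 1, and the 10 higher with ABT-869 alone were 6 after centring. S100A8, a subunit of calprotectin, had signals of 229, 239 and 315 with DMSO and 1529.6, 977 and 956 with ABT-869, a rise of 2.12 (adjusted p = 1.66e-05). It had signals of 1154, 1389 and 1302 with SAHA and 469.7, 653 and 497 with the combination, a difference of −1.26 (adjusted p = 0.0013). The settings differed by −3.38 (SE 0.266, adjusted p = 3.59e-05). S100A9, the other subunit of calprotectin, rose by 1.16 (adjusted p = 0.0269) without SAHA, a call lost after centring, and fell by 1.41 on the log2 scale (adjusted p = 0.00809) with it. ACP3, an acid phosphatase, was named for its difference between the settings and not from this list. It rose by 1.52 (adjusted p = 1.82e-05) without SAHA and fell by 0.91 on the log2 scale (adjusted p = 0.00141) with it, and its settings differed by −2.43 (adjusted p = 3.59e-05). CD86, a costimulatory ligand of antigen-presenting cells, had signals of 1368, 1316 and 1210.1 with SAHA and of 815, 803 and 692 with the combination, with no overlap, and differed by −0.76 (adjusted p = 0.00253).

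The rise in this list was MPEG1, a pore-forming protein of macrophages, at 1.24 (adjusted p = 0.0206). It was not called without SAHA replicate 1 or 2 or without any 1 of the combination arrays. MS4A4A, a macrophage membrane protein, rose by 2.32 (adjusted p = 0.000674) with ABT-869 alone and did not pass on top of SAHA (−0.13, adjusted p = 1), with a difference between the settings of −2.45 (adjusted p = 0.0154). Of 9 myeloid transcription factors none passed the test in limma, and 3 were higher at an unadjusted p under 0.05. Of 35 interferon-induced genes 3 were lower and 1 higher. IFITM1, an antiviral membrane protein, had signals of 1265, 1282 and 1211 with SAHA and of 582, 725 and 735 with the combination, and differed by −0.89 (SE 0.119, adjusted p = 0.000587), without overlap. IFIT3, which limits viral translation, fell by 2.74 on the log2 scale (adjusted p = 6.71e-06) without SAHA and did not pass with it (−0.38, adjusted p = 0.514), and the settings differed by 2.37 (adjusted p = 0.00149).

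Among 21 cytokines and chemokines 2 were lower and 1 higher in their representing probe sets. TNF, a central inflammatory cytokine, had signals of 684, 722 and 744 with SAHA and of 1648, 1434 and 2138 with the combination. It rose by 1.26 (SE 0.156, adjusted p = 0.000288), 2.39-fold, with all combination arrays above the SAHA arrays. It also rose without SAHA, by 0.94 (adjusted p = 0.00284). In MOLM-14 its signals were 1547, 1134 and 1292 with SAHA and 946, 767 and 656 with the combination, a difference of −0.75 (adjusted p = 0.0233), and the lines differed by 2.01 (SE 0.227, adjusted p = 5.04e-05). CCL5, a chemokine for T cells and monocytes, fell by 0.81 on the log2 scale (adjusted p = 0.00329) in MV4-11, a call lost without the variance trend. ICAM1, an adhesion ligand of leukocyte integrins, differed by −0.67 (adjusted p = 0.00166), and 3 of 13 adhesion genes were lower. CCL20, a chemokine of lymphocytes and dendritic cells, was named for its large fall and is not among the 2 lower counted above. It had signals of 296, 321 and 382 with SAHA and of 24.8, 101 and 30.5 with the combination, of which 2 lay under 32, and differed by −2.82 (SE 0.455, adjusted p = 0.00233).

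The largest falls lay partly outside the lists. IL32, a cytokine-like protein, had signals of 307, 444 and 328 with SAHA and of 25.2, 37.5 and 51.8 with the combination, and differed by −3.16 (SE 0.344, adjusted p = 9.56e-05). Its combination signals lay around the floor, and the probe set was not tested when only brighter probe sets were kept. APOL4, an apolipoprotein L family member, had signals of 409, 409 and 382 with SAHA and of 44.2, 58.4 and 36.8 with the combination. It differed by −3.13 (SE 0.406, adjusted p = 0.000452), and in MOLM-14 it did not pass (−0.55, adjusted p = 0.302). JPH2, a junctophilin that couples membranes, had signals of 760.1, 743 and 703 with SAHA and of 129.7, 156 and 105 with the combination. It differed by −2.52 (SE 0.163, adjusted p = 1.06e-06), with tight replicates in both groups, and 2 of its 3 probe sets passed the test. BHLHE40, a repressor of the clock and of hypoxia responses, had signals of 1250.5, 1449 and 1625 with SAHA and of 441, 462 and 136 with the combination. It differed by −2.25 (SE 0.344, adjusted p = 0.00157), and combination replicate 3 was far below the other two.

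ALDH1A3, which makes retinoic acid, had the lowest adjusted p of the genes named here, in 1 of its 2 probe sets. It had signals of 1993, 1922 and 1891 with SAHA and of 418, 376 and 446 with the combination, and differed by −2.23 (SE 0.114, adjusted p = 4.42e-07), 4.7-fold. Its DMSO signals of 739, 614 and 739.7 lay between those groups, and ABT-869 alone gave 498, 585 and 581, a difference of −0.33 (adjusted p = 0.144) that did not pass. The settings differed by −1.90 (SE 0.161, adjusted p = 5.8e-05). In MOLM-14 it fell by 0.80 on the log2 scale (adjusted p = 0.00116), and the lines differed by −1.43 (adjusted p = 1.57e-05). TXNIP, an inhibitor of thioredoxin and of glucose uptake, differed by −0.74 (SE 0.0842, adjusted p = 0.000138) in MV4-11 and by −0.94 (adjusted p = 6.1e-05) between the lines. CTSH, a lysosomal protease, differed by −1.24 (adjusted p = 0.00237), and CDKN1A (p21), an inhibitor of cyclin-dependent kinases, by −0.51 (adjusted p = 0.00433), the latter not called without the variance trend.

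The largest rises were dim. Of the 15 genes with the largest rise, 12 had a SAHA array under 32, compared with 8 of the 15 largest falls with a combination array under 32. UBXN1, a ubiquitin-binding protein, had signals of 31.0, 32.4 and 11.0 with SAHA and of 109, 107 and 134 with the combination, and differed by 1.85 (adjusted p = 0.00406) in 1 of its 2 probe sets. Its SAHA signals lay around or under the floor, so the size depends on the floor. The difference of UBXN1 was 0.86 with a floor of 64 and 2.38 with a floor of 1, and it was not called among brighter probe sets only. E2F2, an activator of the cell cycle, had signals of 21.7, 23.5 and 29.2 with SAHA and of 109.6, 75.2 and 96.3 with the combination in 1 of its 3 probe sets. All 3 SAHA signals lay under 32, so that the difference of 1.53 (adjusted p = 0.00968) is set by the floor, and it was not called with a floor of 64. Its brightest probe set did not pass. PYCR3, an enzyme of proline synthesis, was measured above the floor in both groups, with signals of 161, 133.2 and 236 with SAHA and of 423, 456 and 508 with the combination. It rose by 1.43 (SE 0.264, adjusted p = 0.00588), without overlap. EGR3, an early response transcription factor, did not pass in MV4-11 (−0.05, adjusted p = 1), differed by −2.26 (adjusted p = 0.0143) in MOLM-14, and by 2.21 (adjusted p = 0.0357) between the lines.

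Of 31 genes that the study names, 9 were lower and none higher, with a median of −0.15. The study chose most of them on these samples, by 2-fold changes against DMSO and not against SAHA, in both lines. This count is therefore not independent evidence of their direction. PTP4A3, which encodes the phosphatase PRL-3, had signals of 2096, 1839.6 and 1840.0 with SAHA and of 804, 887 and 964 with the combination. It differed by −1.12 (SE 0.11, adjusted p = 3.41e-05) with no overlap, and by −1.06 (adjusted p = 6.22e-05) without SAHA, with −0.06 (adjusted p = 1) between the settings. These values are from its brightest probe set, which is not the one that the study lists. APOBEC3B, a DNA cytidine deaminase, had signals of 1078, 1035 and 887 with SAHA and of 467, 412 and 551 with the combination. It differed by −1.07 (SE 0.12, adjusted p = 0.000121), did not pass without SAHA (0.17, adjusted p = 0.585), and differed between the settings by −1.25 (adjusted p = 0.00195). ACAT2, of sterol synthesis, DENND3, an activator of RAB12, and MND1, a meiotic recombination protein, differed by −0.98 (adjusted p = 6.91e-06), −0.81 (adjusted p = 0.000289) and −0.77 (adjusted p = 2.4e-05). ZNF85, a zinc finger protein, differed by −0.58 (adjusted p = 0.0276), a call lost without SAHA replicate 1 or 3 or combination replicate 2 or 3, without the variance trend, with all probe sets in the variance fit and with only the 6 arrays compared. HMGCS1, BIRC5 and ORC1, described above, were the others.

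The remaining lists are given by their counts. None of 11 histone deacetylases, the targets of SAHA, passed the test in limma, and 2 were lower at an unadjusted p under 0.05. Of 20 p53 targets 4 were lower and 2 higher, of 12 caspases and their inhibitors 3 were lower, and of 9 death members of the BCL2 family 1 was lower. Heat shock chaperones had 3 of 11 higher and none lower, with a median of 0.14. Of 18 immediate early genes 2 were lower, of 6 CDK inhibitors 3, of 16 FOXO targets 3 with 1 higher, and of 9 genes of the MYC and MAX network 3 with 1 higher. The unfolded protein response had 3 of 18 lower and 1 higher, and lysosome and autophagy genes 2 of 25 in each direction. Of 13 amino acid and one-carbon enzymes 2 were lower and 1 higher, of 16 G1 cyclins and E2F genes 1 in each direction, and of 15 homologous recombination and Fanconi genes 2 were lower. Among myeloid genes, 2 of 7 primary granule proteins were lower and 1 higher, 2 of 3 genes of the HOXA cluster and MEIS1 were lower, and 1 of 10 MHC class II genes was lower.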

How the data were processed

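Expression of 24 cultures was measured on Affymetrix U133 Plus 2.0 arrays. The deposited intensity values are linear signals, 1 per probe set, which the authors scaled to a common trimmed mean. Which software made them was not given in the sources used here, and no array repeated another. The 62 control probe sets were left out, signals under 32 were set to 32 and log2 was taken. Of the 54613 probe sets, 41091 name 1 gene by the platform annotation, 1801 name several and 11721 are unnamed here.

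Linear models with a variance trend were run in limma 3.58.1 under R 4.3.3, over the 12 arrays of a line or, between the lines, over 24, with Benjamini-Hochberg adjustment over all probe sets. In limma, probe sets above 32 on fewer than 3 arrays of a fit did not enter it and counted as not passing. The fit was tested on simulated data. The median standard error of a log2 difference was 0.273. The arrays chosen, the gene lists and the tests were set with earlier results of these data known. The genes named are the 15 largest rises and falls, the 3 largest of each list in each direction, genes the study names, and the 6 largest differences in each direction between settings and between lines, some left out for length. Others are marked as chosen after their values were seen. RefSeq promoters were found for 15384 genes. Alternatives changed the floor, normalization, variance model, arrays and probe sets.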

Additional observations from a re-analysis of the deposited data

Results flagged for a closer look

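Adding ABT-869 to SAHA gave a different result in MV4-11 and MOLM-14 for 34 probe sets of the 86 genes named in the report, at an adjusted p under 0.05 for the difference between the lines in limma. Beside these, 0.436% of all probe sets were higher and 0.597% lower in that contrast. Some of the genes were named for a large difference in this same contrast or a large change in MV4-11. The number 34 is therefore no evidence of an excess over these shares. Values are log2 differences, MV4-11 minus MOLM-14, and 28 were below 0 and 6 above. After centring of the arrays 9 of the 34 were no longer called, those of AURKB, KIF11, CISH, SOCS2, SCD, INSIG1, APOBEC3B, MND1 and the brighter JPH2 probe set. With quantile normalization all 34 stayed called.

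Among mitotic genes the difference was −1.27 for TOP2A, −1.20 for KIF20A, −1.16 for PLK1, −1.11 for NDC80 and −1.05 for CCNB1. It was −0.98 for HMMR, −0.96 for BIRC5, −0.81 for AURKB and −0.70 for KIF11.

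For metallothioneins it was −1.43 for MT1H, −1.28 for MT1X and −1.11 for MT1E, and for histone genes −2.09 for H2AC6 and −1.60 for H2BC5. For PIM1, CISH and SOCS2 it was −1.33, −0.87 and −0.44. These are differences in size between the lines and do not mean that MOLM-14 had no fall. PIM1 was called lower in MOLM-14 only after centring (−0.85, adjusted p = 0.00132 in limma).

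Of the genes of metabolism, it was −1.16 for ALDOC, −0.81 for INSIG1, −0.66 for SCD, −0.94 for TXNIP and −1.43 for ALDH1A3. JPH2 differed by −3.38 and −1.44 in its dimmer and its brighter probe set, and the dimmer one lay under 32 on all 3 combination arrays of MV4-11, so that the size of its difference depends on the floor. The 2 probe sets also went opposite ways in MOLM-14. There the dimmer one was called higher in limma, but not after quantile normalization (1.12, adjusted p = 0.0964). The brighter one was called lower there only after centring (−1.38, adjusted p = 0.0092). Between the lines APOL4 differed by −2.58, ACP3 by −1.06, APOBEC3B by −0.74 and MND1 by −0.63.

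The differences above 0 were 1.20 for PFAS, 1.07 for RRP12, 0.74 for VARS1 and 0.66 for FARSB, which are genes of biosynthesis, and 2.01 for TNF and 2.21 for EGR3. TNF passed the test in both lines with opposite signs, and EGR3 only in MOLM-14.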

How the results depend on the processing

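Of 76 called probe sets of the genes named, 60 kept their direction and call under all 22 alternatives, 16 lost the call under at least 1, and none reversed. For ABT-869 added to SAHA in MV4-11 the 2248 calls became 1125 after centring of the arrays on their medians, 826 without the variance trend and 1410 with only the 6 arrays compared. The 1007 higher calls became 286, 264 and 599 under these, and 1557 with all 24 arrays in 1 fit. The 1241 lower calls became 562 without the variance trend and 811 with only the 6 arrays. Higher calls of at least 2-fold, 71, became 44 after centring and 121 with 24 arrays. ABT-869 without SAHA, 2237 calls, gave 1331 after centring, 926 without the trend and 3433 with 24 arrays. The contrast between the settings, 534 calls, gave 180, 107 and 1004. MOLM-14, 251 calls, gave 5576 after centring and 60 without the trend. The contrast between the lines, 564 calls, gave 1084, 199 and, with probe sets above the median signal only, 862. Quantile normalization gave 250 calls in MOLM-14, 609 between the settings and 708 between the lines. For lists and genes in the comparisons other than ABT-869 added to SAHA in MV4-11, centring and quantile normalization were chosen after seeing the data. With them KIF11 in MOLM-14 went from a difference near 0 to −0.30 after centring, where it was called. Centring moves all signals of an array by 1 amount on the log2 scale. The median signal was 61.2 to 65.1 on the MOLM-14 SAHA arrays and 75 to 80.6 on the MOLM-14 combination arrays. The MOLM-14 median of the mitotic list moved from 0.01 to −0.30, and that of the sterol list from −0.64 to −0.94. Why the array medians differed was not tested. Leaving out 1 array at a time gave 1282 to 2525 calls, 488 to 1148 higher, 785 to 1377 lower, 33 to 124 higher by at least 2-fold and 217 to 295 lower by at least 2-fold, and the total was 1282, 1335 and 1322 without SAHA replicates 1, 2 and 3. The ranges were 1177 to 2792 for ABT-869 without SAHA, 310 to 632 between the settings, 94 to 301 in MOLM-14 and 258 to 656 between the lines. The labels do not say whether same-numbered arrays belong together, and correlations over 3 arrays per group cannot settle it. Over the 12 pairs of groups within a line, deviations of same-numbered arrays correlated at −0.227 to 0.33 and those of other arrays at −0.329 to 0.293, and in none of the 12 were all 3 same-numbered correlations over 0.1. A replicate block gave 1820 calls, 765 higher and 1055 lower. The 3 arrays per group and values around the floor limit the precision of dim genes.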
